A study of Mus musculus with 23 samples.

Results

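Prenatal exposure to maternal metabolic syndrome was set directly against exposure during nursing, by comparing liver messenger RNA of the MetS-Ct pups with that of the Ct-MetS pups. The 2 groups hold 12 of the 23 libraries of the study, 6 each, chosen by their treatment labels, with 1 animal per library. The first part of a group name gives the birth dam and the second the foster dam, so that MetS-Ct pups were exposed before birth and Ct-MetS pups while they were nursed. All animals were C57Bl/6J mice, and livers were taken at postnatal day 21, except that MetS-Ct_97 is labelled day 22. Dams ate a diet with 10% fat (Ct) or 45% fat (MetS) that began at 3 weeks of age and lasted 7 or 17 weeks, before mating with males on the control diet. Every litter was reduced to 5 pups and given to a foster dam on the day of birth, so the handling of fostering is common to all groups. The other libraries are pups with no exposure (Ct-Ct, n = 6) and with both (MetS-MetS, n = 5), which entered the fit to share 1 estimate of the spread. No label ties an animal to a sex, a litter or a length of diet, and sex is read from the counts below. The p-values thus measure the spread between these pups, some of which may be litter mates.

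The newborn mouse liver still makes red cells, and this activity fades in the weeks after birth, when the organ takes over adult handling of fat, sugar and amino acids. Red cell precursors carry a characteristic set of membrane proteins, among them the anion exchanger band 3, the Rh complex and blood group antigens, on a skeleton of spectrin and ankyrin. Cross-fostering separates exposure through the birth dam from exposure through the foster dam. The diet of the birth dam began before mating, so that arm also takes in the time before conception. Whether the diet of the foster dam reached the pups only as milk was not tested.

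GATA elements are textbook features of red cell promoters, and 4 of the 5 genes higher in Ct-MetS are red cell genes. Promoter sequences of the genes higher in Ct-MetS are therefore shown first. Each is the 250 bases before the transcription start in RefSeq (mouse build GRCm38.p6), read 5′ to 3′ on the strand of the gene, with capitals marking the GATA core AGATAA or the CCAAT box on either strand. RefSeq windows matched 9 of the 11 genes called below, and of this group all but Slc4a1. Of the 4 shown, Stom is made in many cell types. CCAAT is not particular to red cell genes, as 34.5% of all gene windows held it. The windows lie at chr17:36869324-36869573 (plus strand) for Trim10, chr4:119189996-119190245 (minus strand) for Ermap, chr17:40810899-40811148 (plus strand) for Rhag and chr2:35337010-35337259 (minus strand) for Stom.
Trim10: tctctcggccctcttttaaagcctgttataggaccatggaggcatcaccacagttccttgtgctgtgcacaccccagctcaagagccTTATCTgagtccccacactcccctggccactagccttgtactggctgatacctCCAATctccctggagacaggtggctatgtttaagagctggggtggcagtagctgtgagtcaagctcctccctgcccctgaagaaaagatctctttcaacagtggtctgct
Ermap: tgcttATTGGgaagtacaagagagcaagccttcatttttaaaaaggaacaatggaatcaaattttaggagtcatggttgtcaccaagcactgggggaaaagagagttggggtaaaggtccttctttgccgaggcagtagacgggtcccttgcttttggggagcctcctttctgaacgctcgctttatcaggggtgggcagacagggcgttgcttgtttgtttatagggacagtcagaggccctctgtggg
Rhag: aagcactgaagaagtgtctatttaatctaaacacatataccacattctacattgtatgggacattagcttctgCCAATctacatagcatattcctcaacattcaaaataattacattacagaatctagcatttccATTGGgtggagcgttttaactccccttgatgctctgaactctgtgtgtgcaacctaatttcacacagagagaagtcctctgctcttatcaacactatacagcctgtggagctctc
Stom: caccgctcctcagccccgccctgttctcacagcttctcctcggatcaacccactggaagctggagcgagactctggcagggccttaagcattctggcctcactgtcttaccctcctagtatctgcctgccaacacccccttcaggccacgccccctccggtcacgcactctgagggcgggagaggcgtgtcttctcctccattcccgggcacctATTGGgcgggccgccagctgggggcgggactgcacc

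Trim10 had a GATA core that began 163 bases before the start and a CCAAT box 110 bases before it. Ermap had 1 CCAAT box, 245 bases before the start, Rhag had 2, at 177 and 115 bases, and Stom had 1 at 36 bases. None of these matches overlapped another. CCAAT was thus present in 4 of 4 windows of this group and in 1 of 5 windows of the genes higher in MetS-Ct (Sfxn5). It was present in 34.5% of 27025 gene windows of this length and in 36.3% of the 10921 windows of tested genes. AGATAA was present in 1 of 4 and 0 of 5, against 10.3% of all windows and 6.16% of those of tested genes. Other spellings of a GATA element were not searched. The Ermap and Rhag windows hold TTATCA, which is TGATAA on the other strand, in lower case. The count therefore does not mean that Trim10 alone has a GATA element. The KLF1-like CCACACCC was in none of the 9, against 3.19% of all and 3.36% of tested windows. The PPAR direct repeat was in none, against 0.037% and 0.0458%. The E box CACGTG was in 0 of 4 and 1 of 5, against 6.05% of all and 8.29% of tested windows. All motifs were searched on both strands, and a match describes letters only.

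Across the 14466 genes that averaged 10 or more counts over the 23 libraries, 11 differed between the groups at a Benjamini-Hochberg adjusted p under 0.05 (edgeR quasi-likelihood test), which is 0.0760% of genes tested. Of these, 6 were higher in MetS-Ct (0.0415%) and 5 were higher in Ct-MetS (0.0346%). At an unadjusted p under 0.05 the number was 1824 (12.6%), 881 higher in MetS-Ct (6.09%) and 943 higher in Ct-MetS (6.52%). Values of all 6 MetS-Ct libraries lay above all 6 Ct-MetS libraries for 28 genes (0.194%) and below them for 58 (0.401%), 86 in all (0.594%). DESeq2 called 97 genes (0.671%), including these 11, with 43 higher in MetS-Ct (0.297%) and 54 higher in Ct-MetS (0.373%), and limma-voom called 8 (0.0553%), all among them. Scaling by library totals alone gave 22, with 7 higher in MetS-Ct and 15 higher in Ct-MetS. A fit of the 12 libraries alone called 0 (1615 at unadjusted p under 0.05). The number also fell to 0 when MetS-Ct_70, MetS-Ct_97, MetS-Ct_120 or Ct-MetS_63 was left out (1346 to 1721 at unadjusted p under 0.05), and to 1 without MetS-Ct_53 or Ct-MetS_145 and 2 without Ct-MetS_24. It was 7 without MetS-MetS_39 or MetS-MetS_157, 17 without Ct-Ct_33, 23 without Ct-MetS_65, 28 without MetS-Ct_149 and 64 without Ct-MetS_50. All log2 fold changes below are MetS-Ct minus Ct-MetS, and levels are in CPM (counts scaled to the TMM-adjusted library size), which do not correct for gene length.

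**Figure D1:**
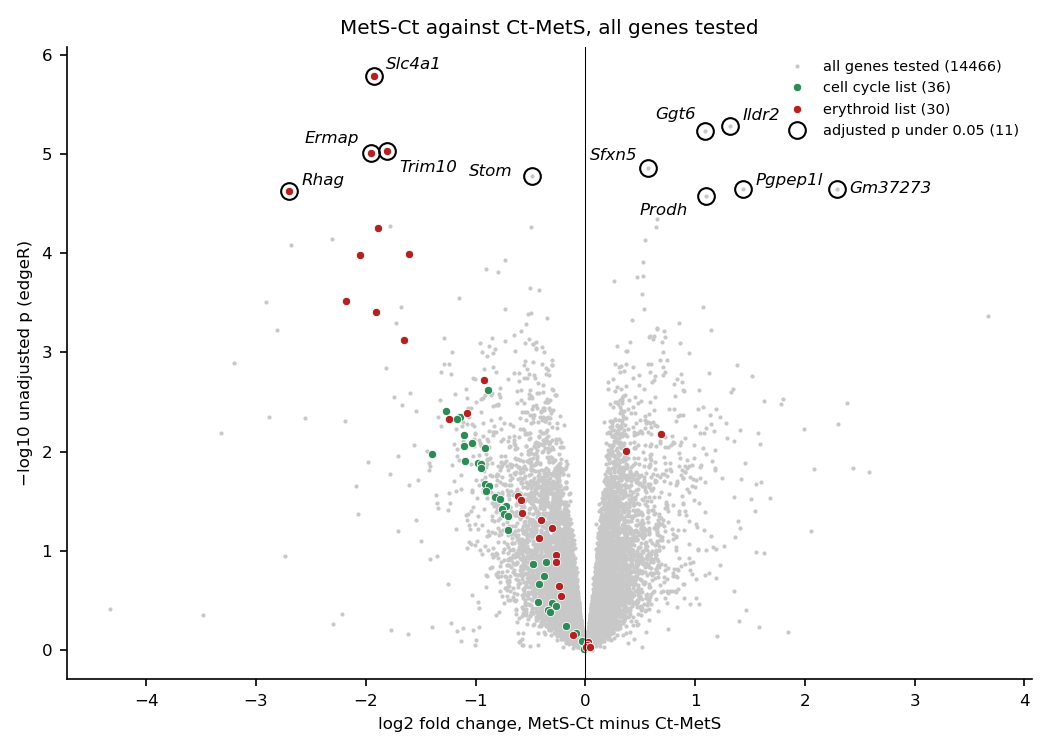
Log2 fold change (MetS-Ct minus Ct-MetS, horizontal) against minus log10 of the unadjusted p (vertical) for the 14466 genes tested, with the erythroid and cell cycle lists marked. All 36 cell cycle genes lie left of 0, and 4 of 30 erythroid genes passed the adjusted threshold, all higher in Ct-MetS.

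MetS-Ct libraries were not uniform. On the first principal component of the 12 libraries (30.4% of the variance in log2 CPM) MetS-Ct_70 and MetS-Ct_97 had scores of 34.47 and 30.22, MetS-Ct_53 had 17.76, and the other 9 were below 10. Library pairs correlated at 0.972 to 0.988 within MetS-Ct, 0.972 to 0.992 within Ct-MetS and 0.967 to 0.990 between them (Pearson, log2 CPM), and no pair agreed within sampling noise. Totals ran from 21388591 to 34527932 counts in the 12 libraries. Every library of the series had at least 15615 counts of Xist and at most 2 counts over 4 Y-linked genes, the pattern of female animals. Without MetS-Ct_70 and MetS-Ct_97 no gene passed in edgeR (998 at unadjusted p under 0.05). This omission was chosen after seeing the data.

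The red cell genes Slc4a1, Rhag, Ermap and Trim10 were lower in MetS-Ct than in Ct-MetS, by 3.497-fold to 6.51-fold. Slc4a1, which encodes the anion exchanger band 3, had CPM of 1.09, 1.18, 3.20, 1.93, 1.31 and 3.04 in MetS-Ct. In Ct-MetS it had 8.07, 9.81, 9.504, 6.60, 5.93 and 5.05, and the groups did not overlap. The difference was 3.81-fold (log2 −1.93, SE 0.30, adjusted p = 0.0236, edgeR). The unexposed Ct-Ct libraries ran from 1.76 to 4.65 CPM, all below the lowest Ct-MetS library, and 3 of the 6 lay within the MetS-Ct range.

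Rhag, a subunit of the Rh complex, had 0.0352 to 0.193 CPM in MetS-Ct (median 0.0591) and 0.359 to 0.813 in Ct-MetS (median 0.687). These levels rest on 1 to 6 counts against 11 to 30 counts per library, and the groups did not overlap. Rhag was 6.51-fold higher in Ct-MetS (log2 −2.70, SE 0.51, adjusted p = 0.0346). Ermap, which carries the Scianna blood group antigens, ran from 0.155 to 0.755 CPM (median 0.375) in MetS-Ct and from 1.11 to 2.22 (median 1.43) in Ct-MetS, again apart. It was 3.86-fold higher in Ct-MetS (log2 −1.95, SE 0.35, adjusted p = 0.0286).

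Trim10, a tripartite motif protein of late red cell maturation, had 0.232 to 0.451 CPM in MetS-Ct. In Ct-MetS, 5 libraries had 1.21 to 1.53 and Ct-MetS_169 had 0.293, within the MetS-Ct range. The fitted difference was 3.497-fold (log2 −1.81, SE 0.32, adjusted p = 0.0286). Stom encodes stomatin, a membrane protein abundant in red cells but made in many cell types. It ran from 44.0 to 62.7 CPM (median 52.6) in MetS-Ct and from 62.1 to 83.4 (median 77.5) in Ct-MetS, where only Ct-MetS_50 reached the MetS-Ct range. It was 1.40-fold higher in Ct-MetS (log2 −0.49, SE 0.09, adjusted p = 0.0343).

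**Figure D2:**
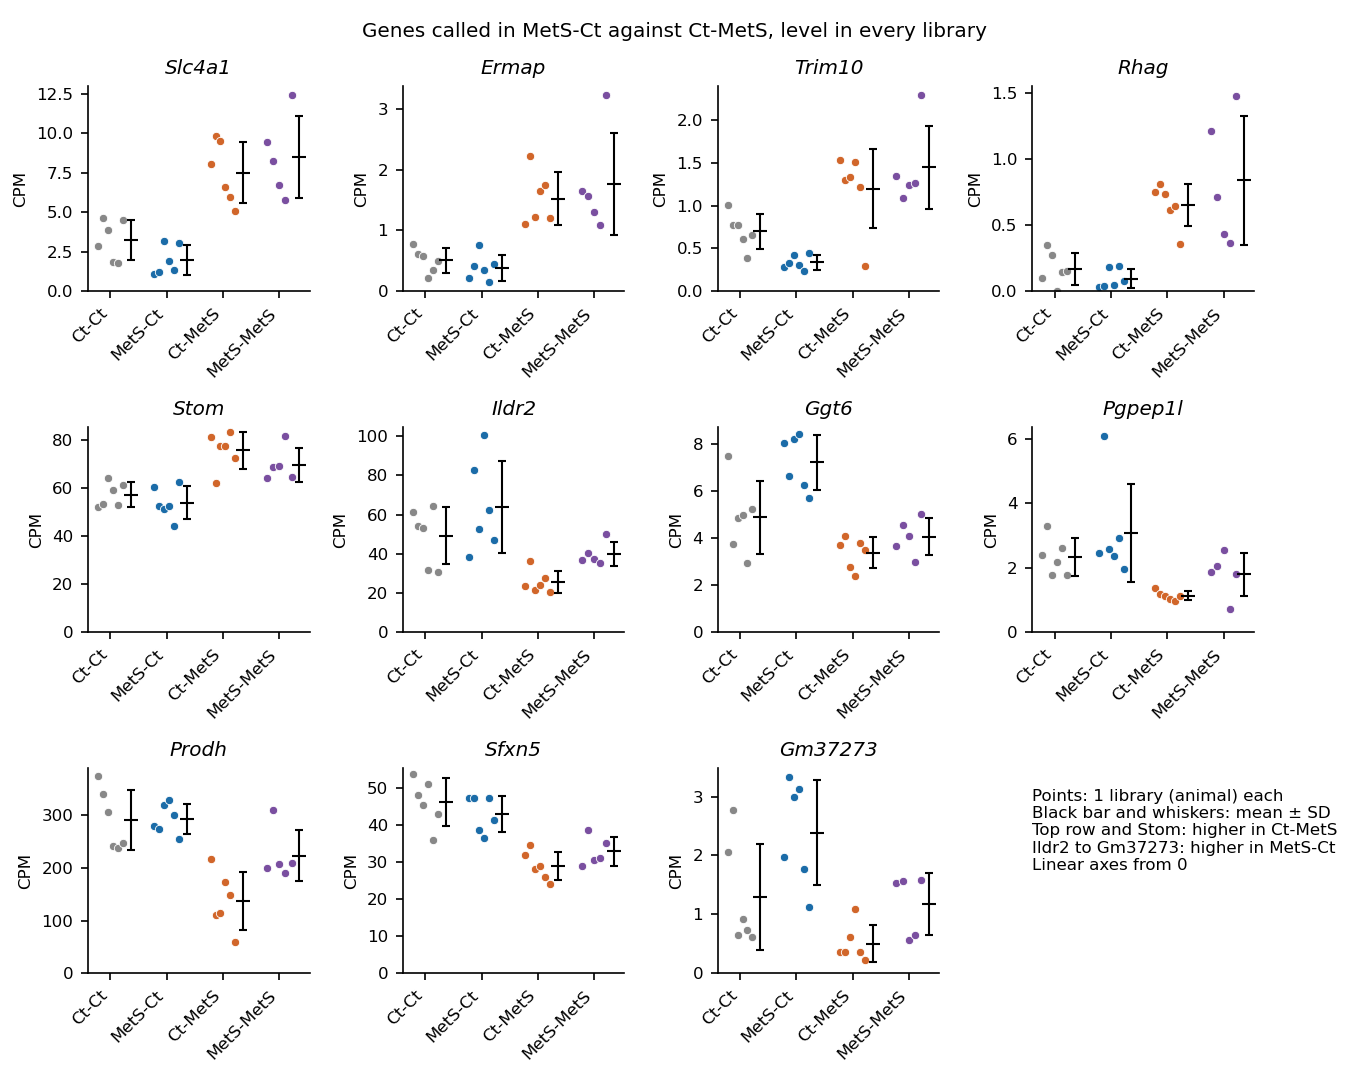
CPM per library (vertical, linear axes from 0) of the 11 called genes in the 4 groups, one point per animal, with the mean ± SD of each group in black. Slc4a1 runs from 1.09 to 3.20 in MetS-Ct and from 5.05 to 9.81 in Ct-MetS, and Trim10 has 1 low Ct-MetS library at 0.293.

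Of the 30 erythroid genes tested, 4 passed, all higher in Ct-MetS (0.0346% of all genes passed in that direction). An unadjusted p under 0.05 was found for 17 in that direction and 2 in the other, against 6.52% and 6.09% of all genes. The erythroid list, like the other lists, was chosen with earlier results of these data known. Its excess over all genes is therefore not independent of these libraries. The median log2 fold change of the list was −0.58, against 0.00 over all genes, and it was −0.57 without MetS-Ct_70 and MetS-Ct_97. The median lay below 0 under all 33 settings, from −0.77 without a count filter to −0.27 when the mean had to reach 50 counts. DESeq2 called 11 members and limma-voom 2. Without 1 library the number called ran from 0 (MetS-Ct_53, MetS-Ct_70, MetS-Ct_97, MetS-Ct_120 or Ct-MetS_63 left out) to 6 (MetS-Ct_85 left out), and it was 1 without Ct-MetS_24 or Ct-MetS_145. All 6 Ct-MetS libraries were above all MetS-Ct libraries for 8 of the 30, against 0.401% of all genes.

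Further membrane and skeleton genes had point estimates of the same sign but did not pass. Ank1 (ankyrin) had a log2 fold change of −1.60 and Kel (a blood group antigen) −2.05, both with adjusted p = 0.0712. Epb42 (a binding partner of band 3) had −2.18 (adjusted p = 0.131) and Add2 (beta adducin) −1.91 (adjusted p = 0.144). MetS-Ct and Ct-MetS libraries did not overlap for Ank1, Kel, Epb42 and Add2, all of which are below 3 CPM.

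Globin and haem genes did not pass the test. Hbb-bs, an adult beta globin, ran from 79.8 to 146 CPM (median 98.3) in MetS-Ct and from 86.0 to 211 (median 158) in Ct-MetS (log2 −0.58, adjusted p = 0.337). Hba-a1, an alpha globin, had −0.57 (adjusted p = 0.371), and Alas2, the first enzyme of haem synthesis in red cells, had −0.40 (adjusted p = 0.395). Klf1, a transcription factor of red cell genes, had a point estimate of the opposite sign (log2 0.69, adjusted p = 0.234), with 3.08 to 6.36 CPM in MetS-Ct and 1.84 to 3.98 in Ct-MetS. The summed CPM of the globin genes was 160 to 278 in MetS-Ct (median 211), 183 to 453 in Ct-MetS (median 337) and 256 to 778 in Ct-Ct (median 420), so both groups had medians below the unexposed pups. The rest of the erythroid list summed to 521 to 724 CPM in MetS-Ct and 519 to 711 in Ct-MetS. In whole liver, fewer cells of a type and less RNA per cell cannot be told apart, and residual blood in the tissue was not tested.

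Of the 6 genes higher in MetS-Ct, Prodh is the one that belongs to a gene list. Proline dehydrogenase begins the breakdown of proline in mitochondria. Prodh had 280, 273, 318, 329, 301 and 255 CPM in MetS-Ct and 216, 110, 114, 174, 148 and 59.5 in Ct-MetS. All MetS-Ct libraries were higher than all Ct-MetS libraries, and Ct-MetS_169 was the lowest. The difference was 2.14-fold (log2 1.10, SE 0.21, adjusted p = 0.0348). Ct-Ct had a median of 277 CPM, close to the MetS-Ct median of 291.

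Ildr2, an immunoglobulin-like membrane protein linked to liver lipid handling in mice, had CPM of 38.6, 82.9, 52.6, 101, 62.5 and 46.9 in MetS-Ct. In Ct-MetS it had 23.5, 36.2, 21.7, 23.96, 27.8 and 20.5. The groups were apart by a narrow gap, and the 2 highest values were those of MetS-Ct_97 and MetS-Ct_70. Ildr2 was 2.50-fold higher in MetS-Ct (log2 1.32, SE 0.22, adjusted p = 0.0285).

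Ggt6, a member of the gamma-glutamyltransferase family, had 5.71 to 8.42 CPM (median 7.34) in MetS-Ct and 2.41 to 4.09 (median 3.60) in Ct-MetS. It was 2.13-fold higher in MetS-Ct (log2 1.09, SE 0.19, adjusted p = 0.0285). Sfxn5, a sideroflexin of the mitochondrial membrane, had 36.6 to 47.5 CPM (median 44.4) against 24.2 to 34.7 (median 28.6), a 1.49-fold difference (log2 0.58, SE 0.10, adjusted p = 0.0335). Neither gene overlapped between the groups. Pgpep1l, a homologue of pyroglutamyl peptidase, had 1.95 to 6.10 CPM (median 2.53) against 0.964 to 1.36 (median 1.12), with the highest value in MetS-Ct_70 (2.70-fold, log2 1.43, SE 0.27, adjusted p = 0.0346). The predicted gene Gm37273, named here after its values were seen, had 1.13 to 3.33 CPM against 0.228 to 1.08 (4.88-fold, log2 2.29, SE 0.43, adjusted p = 0.0346).

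Each group was also read against the unexposed Ct-Ct pups, and both of these comparisons share the Ct-Ct libraries. MetS-Ct against Ct-Ct called 0 genes in edgeR (0.00%; 854 at unadjusted p under 0.05, 5.90%). Ct-MetS against Ct-Ct called 138 (0.954%; 2013 at unadjusted p under 0.05, 13.9%). For Slc4a1 the log2 fold changes were −0.71 in MetS-Ct (adjusted p = 0.825) and 1.21 in Ct-MetS (adjusted p = 0.0427). For Ildr2 they were 0.38 (adjusted p = 0.835) and −0.94 (adjusted p = 0.0380). For Prodh they were 0.01 and −1.09, the latter with adjusted p = 0.0187, and for Sfxn5 −0.10 and −0.68, the latter with adjusted p = 0.00669. For Ermap they were −0.36 and 1.59 (adjusted p = 0.0267 in Ct-MetS). For Rhag they were −0.76 and 1.95 (adjusted p = 0.0489 in Ct-MetS). Stom had −0.08 and 0.41 (adjusted p = 0.0295 in Ct-MetS). The rest of the called genes passed in neither comparison. Trim10 had −1.04 and 0.77 (adjusted p = 0.226 in Ct-MetS), and Ggt6 had 0.56 and −0.53 (adjusted p = 0.178 in Ct-MetS). Gm37273 had 0.88 and −1.41 (adjusted p = 0.120 in Ct-MetS), and Pgpep1l had 0.39 and −1.04 (adjusted p = 0.0631 in Ct-MetS).

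Amino acid and urea cycle genes had 1 of 29 tested members called, Prodh, with 11 at unadjusted p under 0.05 higher in MetS-Ct, 4 higher in Ct-MetS and a median of 0.12, which became −0.03 without Ct-MetS_169. Between 0 and 6 members passed when 1 library was left out. Of all genes tested, 6.09% were higher in MetS-Ct at unadjusted p under 0.05 and 6.52% were higher in Ct-MetS. These shares are the background for the counts of this list and of every list below, in the fit of all 23 libraries. Arg1, the last urea cycle enzyme, ran from 1373 to 2267 CPM (median 1938) in MetS-Ct and from 798 to 1815 (median 1069) in Ct-MetS (log2 0.71, adjusted p = 0.185), and the groups overlapped. Tdo2, which begins tryptophan breakdown, had a log2 fold change of 0.81 (adjusted p = 0.200). Nupr1, a stress-induced ATF4 target, had −1.74 (adjusted p = 0.211), with a top value of 33.1 CPM in Ct-MetS_169 against a group median of 7.75, and −1.10 without that library.

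The gluconeogenesis, glycogen and insulin response list, which also holds Khk, had 0 of 29 called in edgeR. At unadjusted p under 0.05 there were 5, all higher in MetS-Ct, and DESeq2 called 2, Khk among them. Khk, ketohexokinase, the first step of fructose use, ran from 358 to 784 CPM (median 580.0) in MetS-Ct and from 175 to 542 (median 301) in Ct-MetS (log2 0.86, SE 0.22, adjusted p = 0.167). The groups overlapped. Against Ct-Ct, the Ct-MetS log2 fold change of Khk was −1.28 (adjusted p = 0.0187).

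Fat synthesis genes were spread widely within MetS-Ct and also within the unexposed Ct-Ct libraries. Scd1, the stearoyl-CoA desaturase, had 9062, 318, 10503, 940, 9195 and 15745 CPM in MetS-Ct, with MetS-Ct_70 and MetS-Ct_97 the 2 low libraries, and 1272 to 4210 in Ct-MetS (log2 1.51, SE 0.65, adjusted p = 0.333). In limma-voom the log2 fold change of Scd1 was 0.66 (adjusted p = 0.751). Fasn, fatty acid synthase, had 138 and 85.2 CPM in MetS-Ct_70 and MetS-Ct_97 and 337 to 1132 in the other 4, against 173 to 499 in Ct-MetS (log2 0.60, SE 0.62, adjusted p = 0.731). In Ct-Ct, Scd1 ran from 2906 to 23015 CPM and Fasn from 298 to 3850, so the spread is not particular to MetS-Ct. Srebf1, the transcription factor of these genes, had a log2 fold change of 0.01 (SE 0.30, adjusted p = 0.993). Elovl2 and Fads2, which lengthen and desaturate polyunsaturated fatty acids, had −0.43 and −0.78 (adjusted p = 0.302 and 0.303). Of the 31 genes on the synthesis list 0 were called (0 in DESeq2 and limma-voom), with 4 higher in MetS-Ct and 3 higher in Ct-MetS at unadjusted p under 0.05 and a median of 0.26. Without MetS-Ct_70 and MetS-Ct_97 these were 12, 0 and 0.54. Of all 14474 genes in that fit, 483 were higher in MetS-Ct and 515 in Ct-MetS at unadjusted p under 0.05. The libraries left out had the lowest MetS-Ct sums of the list (5275 and 5826 CPM, against 17586 to 28150). The rise of the median therefore cannot be separated from the choice of libraries.

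**Figure D3:**
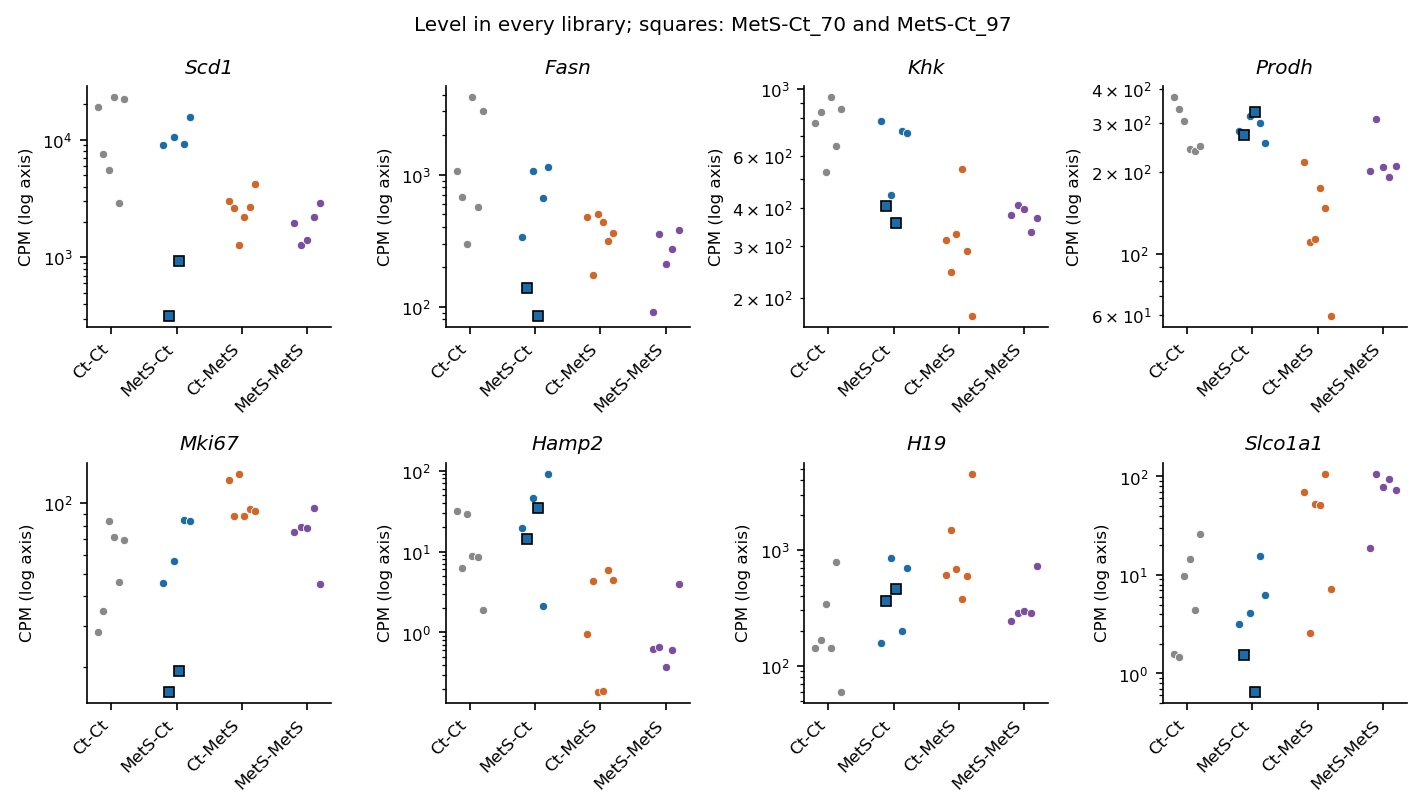
CPM per library (vertical, log scale) of 8 genes in the 4 groups, with MetS-Ct_70 and MetS-Ct_97 drawn as squares. Both libraries lie far below the other 4 MetS-Ct libraries for Scd1 (318 and 940 against 9062 to 15745) and Mki67 (15.6 and 19.1 against 45.5 to 84.5), but not for Prodh.

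Fatty acid oxidation genes had 0 of 41 called in edgeR (1 in DESeq2, 0 in limma-voom), 5 at unadjusted p under 0.05, all higher in Ct-MetS, and a median of −0.11. Ucp2, a mitochondrial carrier induced by fatty acids, ran from 33.002 to 42.3 CPM (median 36.5) in MetS-Ct and from 44.0 to 64.9 (median 49.8) in Ct-MetS without overlap (log2 −0.50, SE 0.10, adjusted p = 0.0506). Against Ct-Ct its log2 fold changes were 0.24 (adjusted p = 0.825) and 0.74 (adjusted p = 0.00299). Vnn1, a PPAR alpha target, had −1.54 (adjusted p = 0.221), Fgf21, a fasting hormone, had −2.56 (adjusted p = 0.224), and Cpt1a, which admits fatty acids to mitochondria, −0.17 (adjusted p = 0.744). The lipid droplet and lipoprotein list had 0 of 28 called (3 in DESeq2, 0 in limma-voom), 2 and 6 at unadjusted p under 0.05 and a median of −0.08. Among its genes, the fatty acid binding proteins Fabp1, Fabp2 and Fabp7 had log2 fold changes of −0.90, −0.87 and −0.94 (adjusted p = 0.176, 0.168 and 0.170). Fabp1 was named after its values were seen. Cholesterol synthesis had 0 of 25 called and 0 at unadjusted p under 0.05 in either direction (0 in DESeq2 and limma-voom), with a median of −0.31 that became 0.09 without MetS-Ct_70 and MetS-Ct_97. Scap, a sterol sensor, had −0.31 (adjusted p = 0.525).

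Cell cycle genes had no call in edgeR, DESeq2 or limma-voom, but all 36 had point estimates below 0. An unadjusted p under 0.05 was found for 22, against 6.52% of all genes in that direction. Their median was −0.76, against 0.00 over all genes. Mki67, a marker of dividing cells, had CPM of 45.5, 15.6, 56.4, 19.1, 84.5 and 83.9 in MetS-Ct and 87.8 to 134 in Ct-MetS, without overlap (log2 −1.03, SE 0.35, adjusted p = 0.247). Cdc20 and Kif23, which act in mitosis, had −1.27 (adjusted p = 0.221) and −0.89 (adjusted p = 0.206). The summed level of the list was 207 to 839 CPM in MetS-Ct (median 448), with MetS-Ct_70 the lowest, and 697 to 981 in Ct-MetS (median 768). Without MetS-Ct_70 and MetS-Ct_97 the median was −0.37 and 8 genes had an unadjusted p under 0.05. Of all 14474 genes in that fit, 515 had one in that direction. The libraries left out had the lowest sums of the list (207 and 259 CPM). The change of the median therefore cannot be separated from their choice.

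**Figure D4:**
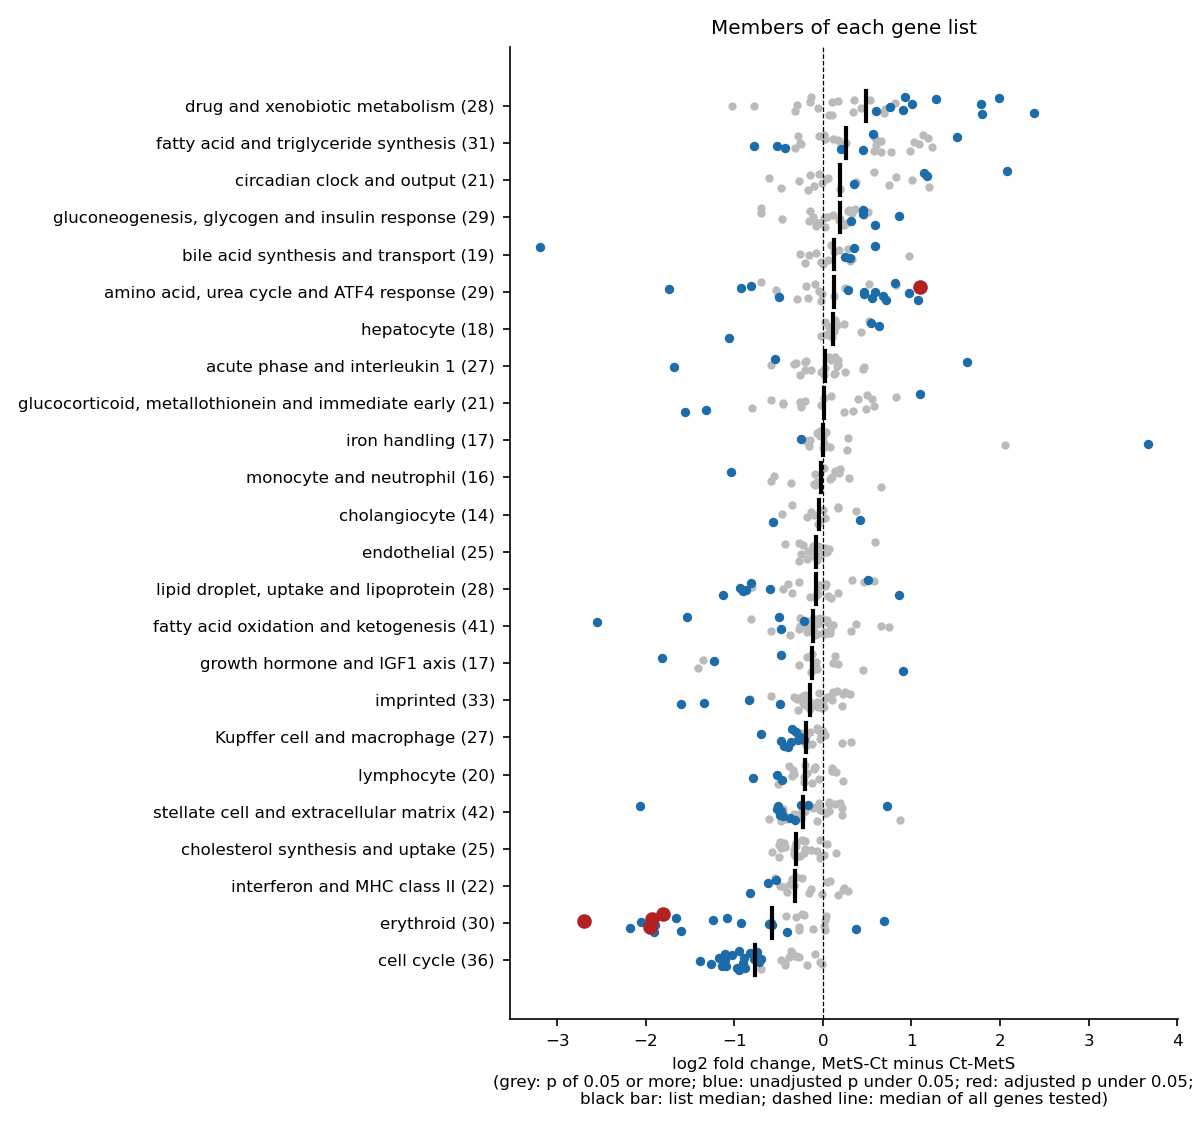
Log2 fold change (MetS-Ct minus Ct-MetS, horizontal) of every tested member of each gene list with 10 or more tested genes, one row per list, with the median marked. The cell cycle (median −0.76) and erythroid (median −0.58) lists lie left of 0, and drug metabolism (median 0.48) lies right of it.

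Kupffer cell and macrophage genes had 0 of 27 called in edgeR (1 in DESeq2, 0 in limma-voom) and a median of −0.19. At unadjusted p under 0.05 there were 10, all higher in Ct-MetS, against 6.52% of all genes in that direction. Cd68, a lysosomal macrophage protein, ran from 8.87 to 11.95 CPM (median 10.4) in MetS-Ct and from 12.03 to 20.9 (median 13.0) in Ct-MetS, without overlap and with the highest value in Ct-MetS_169 (log2 −0.48, SE 0.12, adjusted p = 0.167). Adgre1 and Marco, which mark liver macrophages, had −0.40 (adjusted p = 0.226) and −0.70 (adjusted p = 0.239). The list summed to 1175 to 1276 CPM in MetS-Ct (median 1188) and 1203 to 1581 in Ct-MetS (median 1324). Il1rn, the interleukin 1 receptor antagonist, had 1.37 to 5.46 CPM (median 2.39) against 2.80 to 19.1 (median 7.95; log2 −1.68, SE 0.40, adjusted p = 0.138). The acute phase and interleukin 1 list had 0 of 27 called (2 in DESeq2, 0 in limma-voom), 1 and 2 at unadjusted p under 0.05 and a median of 0.02. Its second named gene is Serpina3g, a protease inhibitor (log2 −0.54, adjusted p = 0.160).

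**Figure D5:**
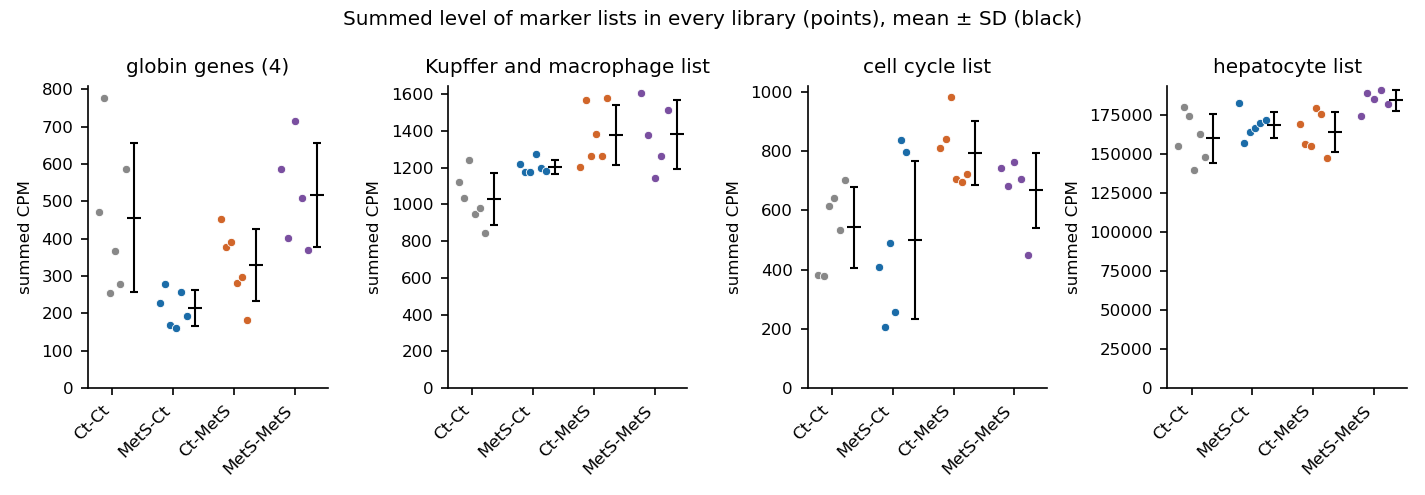
Summed CPM per library (vertical, linear axes from 0) with the mean ± SD in black, for the globin genes and the Kupffer cell, cell cycle and hepatocyte lists in the 4 groups. Cell cycle sums run from 207 to 839 in MetS-Ct and from 697 to 981 in Ct-MetS, and hepatocyte sums from 157304 to 182604 and from 147820 to 179713.

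The stellate cell and matrix list had 0 of 42 called in edgeR (1 in DESeq2, 0 in limma-voom) and a median of −0.23. At unadjusted p under 0.05, 1 was higher in MetS-Ct and 10 in Ct-MetS, against 6.09% and 6.52% of all genes. Pcolce, an enhancer of procollagen processing, had a log2 fold change of −0.52 (adjusted p = 0.145). Smoc2, a matricellular protein, ran the other way, from 25.9 to 57.4 CPM (median 45.9) in MetS-Ct and from 18.2 to 33.7 (median 28.1) in Ct-MetS (log2 0.73, SE 0.20, adjusted p = 0.185). Tgfb1, a profibrotic cytokine, had −0.24 (adjusted p = 0.333) and Col1a1, a fibrillar collagen chain, −0.61 (adjusted p = 0.496).

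Imprinted genes, the subject named in the study's title, had 0 of 33 called in any of the 3 tests, with 4 at unadjusted p under 0.05, all higher in Ct-MetS, and a median of −0.15. Plagl1 (Zac1), a zinc finger regulator of the imprinted network, ran from 5.89 to 11.1 CPM (median 7.35) in MetS-Ct and from 7.00 to 13.1 (median 9.94) in Ct-MetS (log2 −0.32, SE 0.21, adjusted p = 0.535). H19, an imprinted noncoding RNA, ran from 157.5 to 853 CPM against 378 to 4551, with the top value in Ct-MetS_169 (log2 −1.61, SE 0.65, adjusted p = 0.305). Igf2, the fetal growth factor next to it, ran from 3.03 to 11.3 against 7.46 to 53.02, with the same library highest (log2 −1.34, SE 0.60, adjusted p = 0.355). Without Ct-MetS_169 the log2 fold changes were −0.72 for H19 and −0.46 for Igf2. Grb10, an adaptor that restrains insulin signalling, had −0.48 (adjusted p = 0.183), Mest, a fetal growth gene, −0.83 (adjusted p = 0.229), and Cdkn1c, a cell cycle inhibitor, −0.01 (adjusted p = 0.989). Dlk1, a growth-related membrane protein, averaged 3.96 counts over the 23 libraries and was not tested, with 0 to 13 counts in MetS-Ct and 1 to 17 in Ct-MetS.

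Drug metabolism genes had no call among 28 in any of the 3 tests and a median of 0.48 (0.24 without MetS-Ct_70 and MetS-Ct_97). At unadjusted p under 0.05 there were 10, all higher in MetS-Ct, against 6.09% of all genes in that direction. Cyp2a5 and Cyp2b10, cytochrome P450 enzymes, had 1.80 (adjusted p = 0.211) and 2.39 (adjusted p = 0.214), the latter with a top value of 13.3 CPM in MetS-Ct_53. Cyp2b10 had 1.45 without MetS-Ct_53, and Cyp2a5 had 1.14 without MetS-Ct_70 and MetS-Ct_97. Bile acid genes had 0 of 19 called in edgeR (2 in DESeq2, 0 in limma-voom), 4 and 1 at unadjusted p under 0.05 and a median of 0.12. Slco1a1, an organic anion transporter, had 0.645 to 15.6 CPM against 2.55 to 105 (log2 −3.20, SE 0.86, adjusted p = 0.183; −3.92 without MetS-Ct_120). Slc27a5, which activates bile acids, had 0.35 (adjusted p = 0.185). Cyp7a1, the rate-limiting enzyme of bile acid synthesis, had 0.98 (SE 0.68, adjusted p = 0.581) with 764 CPM in MetS-Ct_70. It had 0.22 without that library and −0.17 without that library and MetS-Ct_97.

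Iron genes had 0 of 17 called in edgeR (1 in DESeq2, 0 in limma-voom), 1 and 1 at unadjusted p under 0.05 and a median of 0.00. Hamp2, a hepcidin gene close in sequence to Hamp, so that reads may be split between them, had 2.13 to 91.9 CPM (median 26.8) in MetS-Ct and 0.183 to 5.97 (median 2.66) in Ct-MetS (log2 3.67, SE 0.88, adjusted p = 0.148). The groups overlapped through MetS-Ct_120. Hamp, the hepcidin that lowers iron export, had 0.502 to 11.5 CPM against 0 to 4.04 (log2 2.05, SE 1.05, adjusted p = 0.430). Its log2 fold change was 2.95 without Ct-MetS_169 and 3.57 in limma-voom. Slc11a2, an iron importer, had −0.25 (adjusted p = 0.346).

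The remaining lists gave no edgeR call. Their counts at unadjusted p under 0.05 stand against 6.09% of all genes higher in MetS-Ct and 6.52% higher in Ct-MetS. The growth hormone and IGF1 list had 1 and 3 of 17 at unadjusted p under 0.05 in favour of MetS-Ct and Ct-MetS (1 called in DESeq2, 0 in limma-voom), a median of −0.13, and the serpin Serpina1e and the STAT5 target Cish at −1.82 and 0.91 (adjusted p = 0.185 and 0.290). Serpina1e had 3351 CPM in Ct-MetS_145 against a group median of 973, and a log2 fold change of −1.20 without that library. The circadian list had 4 and 0 of 21 (1 in DESeq2, 0 in limma-voom), a median of 0.19, and the clock gene Per2 at 1.18 (adjusted p = 0.234). The glucocorticoid and immediate early list had 1 and 2 of 21, a median of 0.01, and the immediate early genes Egr1 and Atf3 at −1.32 and −1.56 (adjusted p = 0.229 and 0.247). Atf3 had −0.69 without Ct-MetS_169. Interferon and MHC class II genes had 0 and 3 of 22 and a median of −0.31, with the interferon-induced Oas1a and Cxcl10 at −0.53 and −0.83 (adjusted p = 0.313 and 0.328). In these and the following lists DESeq2 and limma-voom called 0 unless stated.

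Cell type markers were also read, against the same 6.09% and 6.52% of all genes at unadjusted p under 0.05. Hepatocyte markers had 2 and 1 of 18 at unadjusted p under 0.05 and a median of 0.11, led by Foxa2 and Afp at 0.63 and −1.06 (adjusted p = 0.211 and 0.247). Their summed levels, 157304 to 182604 and 147820 to 179713 CPM, show hepatocyte RNA in every library. Endothelial markers had 0 and 0 of 25 and a median of −0.07 (Cdh5 −0.27 and Flt4 −0.25), lymphocyte markers 0 and 3 of 20 and −0.21 (Cd79a −0.79 and Cd3g −0.46), and monocyte and neutrophil markers 0 and 1 of 16 and −0.02 (Prtn3 −1.04 and Cx3cr1 −0.37). Cholangiocyte markers had 1 and 1 of 14 and a median of −0.04, with Cdh1 at −0.56 and Epcam at 0.42. Of 15 pancreatic acinar genes 1 was tested, Cela1 (log2 −0.48, adjusted p = 0.668), and 8 were listed at 0 in all 12 libraries. Skeletal muscle and fat genes had 0 and 0 of 6 and a median of −1.84, which was −0.26 without MetS-MetS_110, on sums of 0.595 to 6.28 CPM in these libraries. The liver genes Hpd, Apoc2, Serpina3k, Hsd3b7 and Ugt1a1 are also listed at 0 throughout, so a 0 in this table need not mean no expression.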

How the data were processed

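PolyA RNA of frozen liver was sequenced, with libraries from a directional kit, per the labels' protocols. The authors deposited whole-number counts. Although the table's name calls them normalised, they were treated as raw counts, because size factors computed from them ran from 0.623 to 1.43. Per the submitters' processing notes, the authors used FastQC, STAR, HTSeq and DESeq2, with no versions. Not given in the sources used here were the genome build, the annotation and the strand setting, so antisense and overlapping genes may share reads. The table has 49585 genes, 49326 of them with a symbol, and 0 columns without a sample. Totals ran from 16876460 to 34527932 counts over the 23 libraries, and low genes carry a larger counting error.

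Samples were grouped by treatment label. Genes with a mean count of at least 10 over 23 libraries were fitted with edgeR 4.0.16 (R 4.3.3; TMM, robust quasi-likelihood, 1 mean per group) and adjusted by Benjamini-Hochberg over 14466 genes. DESeq2 1.42.0, limma-voom (limma 3.58.1), other scalings, count filters, thinning and leaving out each library were alternatives. The fit was tested on simulated data. Named genes are the 10 higher and 10 lower called genes by fold with a mean count of at least 50 over the 12 libraries, the 10 with the smallest p, up to 5 called members of a list or otherwise the 2 with the smallest p, and a set always named because of the study's title or earlier results (among them Plagl1, Igf2, H19, Scd1 and Slc4a1). Predicted genes were left out of the rule. Other genes were named after their values were seen. Among them are Klf1, Ank1, Kel, Epb42, Add2, Alas2, Hamp, the globins, Fabp1, Arg1, Tdo2, Nupr1, Fgf21, Marco and Mki67. A few of the genes so chosen are not reported here. Members, motifs and the 26 gene lists were chosen with earlier results of these data known. Lists were not tested as sets. Promoter windows are RefSeq, build GRCm38.p6, and carry no information on the authors' build.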

Additional observations from a re-analysis of the deposited data

Results flagged for a closer look

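In 18 of 170 groups of 6 libraries examined, 1 library stood farther from its nearest neighbour than 0.625 of the group's range, a gap that chance gives in about 1 group in 20. In Ct-MetS, 7 of these values came from Ct-MetS_169, which was low for Trim10 (0.293 CPM) and high for Cd68 (20.9), Fabp7 (10.6), Atf3 (12.3), H19 (4551), Igf2 (53.02) and Epcam (1.63). Epcam ran from 1.46 to 1.63 CPM in Ct-MetS, on 31 to 56 counts, so that flag marks a small difference. Ct-MetS_24 was high for the muscle genes Myh1 (1.07) and Acta1 (1.499). Ct-MetS_50 was high for Epb42 (1.03), Ct-MetS_65 for Cish (26.6), and Ct-MetS_145 was low for Flt4 (23.7).

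In MetS-Ct, MetS-Ct_70 was high for Pgpep1l (6.10 CPM) and Cyp7a1 (764), and MetS-Ct_53 for Cyp2b10 (13.3). MetS-Ct_149 was high for Cela1 (23.3) and Myh1 (0.0376), and MetS-Ct_85 for Nupr1 (6.94). Pgpep1l and Trim10 are among the 11 called genes. The log2 fold change of Pgpep1l was 1.43 with all libraries and 1.12 without MetS-Ct_70, an omission that left 0 genes called in all (1346 at unadjusted p under 0.05, edgeR). Its call was also lost without each of 9 other libraries. Trim10 was called without Ct-MetS_169, and in 16 of the 23 fits that leave out 1 library. Its call was lost in limma-voom (adjusted p = 0.114), in the 12 libraries alone and when thinned to the smallest library.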

How the results depend on the processing

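No paired analysis was possible because animal numbers are not shared between the groups. The 11 called genes (6 higher in MetS-Ct, 5 in Ct-MetS, 4 erythroid, 1 of the amino acid list) became 22 with library totals only (15 higher in Ct-MetS) and 97 with DESeq2 (43, 54, 11 and 2). With limma-voom, 3 were higher in Ct-MetS and 2 erythroid. Without a count filter, 9 were higher in Ct-MetS and 0 of the amino acid list. A mean of at least 50 counts gave 7 in all, 2 higher in Ct-MetS and 1 erythroid. All 5 counts were 0 in the 12 libraries alone (1615 at unadjusted p under 0.05, edgeR) and without MetS-Ct_70 and MetS-Ct_97 (998, fewer samples). Leaving out 1 library gave 0 to 64 genes in all, 0 to 37 higher in MetS-Ct, 0 to 27 higher in Ct-MetS, 0 to 6 erythroid and 0 to 6 amino acid genes. Each of the 11 kept its direction in every fit that tested it. Slc4a1 stayed called in 18 of the 23 fits that leave out 1 library, Pgpep1l in 13 and Gm37273 in 12. Small differences changed sign. Srebf1 was −0.061 with library totals only and −0.044 with limma-voom, Cdkn1c 0.017 when thinned, and Cyp7a1 −0.17 without MetS-Ct_70 and MetS-Ct_97. Leaving out 1 library gave ranges across 0 for Srebf1 (−0.087 to 0.16), Cdkn1c (−0.14 to 0.088) and Acta1 (−4.37 to 0.34, positive without Ct-MetS_24). The cause was not tested. Depth limits Rhag, with 1 to 6 counts per MetS-Ct library.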
